A study of Mus musculus with 2 samples.

Results

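Cone photoreceptor nuclei of mouse retina were examined in a single-nucleus spatial transcriptome, in which each nucleus has an expression profile and a position on a capture chip. They were the nuclei in which the summed UMIs (unique molecular identifiers, counted molecules) of Arr3, Opn1sw, Opn1mw, Pde6c and Gnat2 were at least 5 and at least 0.3% of all UMIs. This rule found 568 cone nuclei among 16867 kept nuclei, or 3.37% (exact binomial 95% interval 3.10 to 3.65%). The study compared Prph2C213Y/+ mice with age- and sex-matched wild types, all on the C57BL/6J background, and took its spatial data at 6 months. The only expression library, T1, carries no genotype, so no genotype was compared and none was inferred from the values. The labels describe 1 section, 10 um thick, from 1 eye without treatment. The nuclei nevertheless lay in 4 ring-shaped pieces of tissue, numbered here from left to right along the chip. They held 137, 162, 118 and 151 cone nuclei in pieces 1 to 4.

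Cones are the photoreceptors of daylight and colour vision, and in the mouse they are far outnumbered by rods, which serve dim light. Light bleaches an opsin, which activates a transducin, which in turn activates a phosphodiesterase. The fall in cyclic GMP closes cyclic nucleotide-gated channels, and arrestin ends the opsin's signal. Cones and rods build this cascade largely from paired paralogues. Mouse cones carry a short-wavelength opsin, Opn1sw, more of it in ventral retina, and a medium-wavelength opsin, Opn1mw, more of it in dorsal retina, and many cones hold both. Prph2 encodes peripherin-2, which shapes the rims of outer segment discs in rods and cones.

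The promoters of 4 of the 5 genes that chose the nuclei are shown because these genes define a cone here and because the opsins divide the cones later. Each sequence runs 5′ to 3′ from 250 bases before to 50 bases after the annotated start, from RefSeq on GRCm38.p6. Capitals mark the core of CRX and OTX2 binding motifs (TAATC or its reverse complement GATTA) and a nuclear receptor hexamer (AGGTCA or TGACCT), of the kind that thyroid hormone and retinoid receptors bind. The Opn1sw window lies at chr6:29380464-29380763 on the minus strand. The Opn1mw window lies at chrX:74127216-74127515, the Arr3 window at chrX:100605247-100605546 and the Gnat2 window at chr3:108092816-108093115, all on the plus strand.
Opn1sw: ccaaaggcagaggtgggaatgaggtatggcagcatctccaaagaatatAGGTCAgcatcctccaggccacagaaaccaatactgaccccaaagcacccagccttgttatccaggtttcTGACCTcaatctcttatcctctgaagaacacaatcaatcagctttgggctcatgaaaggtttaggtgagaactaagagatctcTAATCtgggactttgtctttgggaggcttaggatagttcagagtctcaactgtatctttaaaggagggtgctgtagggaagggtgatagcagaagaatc
Opn1mw: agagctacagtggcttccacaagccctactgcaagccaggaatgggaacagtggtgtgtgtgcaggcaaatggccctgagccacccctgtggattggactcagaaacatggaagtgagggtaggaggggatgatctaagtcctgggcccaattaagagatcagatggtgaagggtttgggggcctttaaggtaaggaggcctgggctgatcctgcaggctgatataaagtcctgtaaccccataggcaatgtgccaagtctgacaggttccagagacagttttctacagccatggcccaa
Arr3: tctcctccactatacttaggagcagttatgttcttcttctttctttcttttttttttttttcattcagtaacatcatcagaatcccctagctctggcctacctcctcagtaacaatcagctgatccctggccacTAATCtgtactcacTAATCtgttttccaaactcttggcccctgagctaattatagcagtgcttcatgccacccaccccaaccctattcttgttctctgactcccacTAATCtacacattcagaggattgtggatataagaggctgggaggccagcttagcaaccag
Gnat2: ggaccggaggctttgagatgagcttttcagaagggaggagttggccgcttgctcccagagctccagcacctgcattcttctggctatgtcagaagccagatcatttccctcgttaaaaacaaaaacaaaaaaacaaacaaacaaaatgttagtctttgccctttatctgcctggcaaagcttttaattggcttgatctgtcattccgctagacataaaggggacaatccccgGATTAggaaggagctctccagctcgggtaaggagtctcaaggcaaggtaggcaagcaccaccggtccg
The Opn1sw window held 1 core and 2 hexamers, the Arr3 window 3 cores and the Gnat2 window 1 core. The Opn1mw window held neither set of letters. Over all 32851 promoters of the same length, 22.0% held the core on either strand and 16.3% the hexamer. Genes called higher in cones than in rods, defined below, had 626 promoters, which came from 455 genes. Of these promoters 16.5% held the core and 12.8% the hexamer. Over 12711 promoters from 9857 tested genes the shares were 16.0% and 12.2%. Neither motif is rare at this length, and a match describes letters only.

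The values that chose the cone nuclei give no test of them and are stated as a description. The 5 rule genes made up 0.303 to 3.46% of a cone nucleus's UMIs, with a median of 1.42%. Just inside the threshold, 36 nuclei lay between 0.3 and 0.4%, with a median rod-marker share of 2.41%. Just outside it, 32 kept nuclei with enough rule-gene UMIs lay between 0.2 and 0.3%, with a median rod-marker share of 3.37%. Per nucleus the UMIs of Arr3 had a median of 12 and reached 87, and 12 of 568 nuclei had none. Both opsins together had a median of 14 UMIs, from 1 to 102. Cone nuclei held 2011644 UMIs in all, with a median of 2458.5 per nucleus.

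Cones were set against 5942 rod nuclei, chosen by 8 rod markers (among them Gnat1, Nrl, Nr2e3, Pde6a, Pde6b, Cnga1 and Sag) at 1% or more of UMIs. Rod nuclei held 8501198 UMIs with a median of 1089. Levels are given as CPM (a gene's UMIs for every 1000000 UMIs pooled over a class) with exact Poisson 95% intervals. With a single library there are no replicates, and nuclei of 1 library cannot stand in for them, so the intervals cover counting error only and no p-value is given. A gene counted as higher where its lower bound in cones was at least 2 times the upper bound in rods, and lower in the opposite case, among genes with at least 20 UMIs over both classes together. The 13 genes that chose the classes were left out of the calls. Of 12844 genes tested, 625 were higher in cones (4.87%) and 151 lower (1.18%).

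The label held against markers that the rule did not use. Cnga3, the cone channel's alpha subunit, was detected in 55.8% of cone nuclei (51.6 to 59.9%), against 0.387% of rod nuclei and 0.406% of the nuclei that were neither. Pde6h, the inhibitory subunit of the cone phosphodiesterase, was detected in 87.9% of cone nuclei, against 1.55% of rod nuclei. After thinning every nucleus to 500 UMIs, Cnga3 was detected in 15.0% of 565 cone nuclei and 0.0872% of 5733 rod nuclei. The markers thus separated the classes at equal depth, with 3 cone nuclei and 209 rod nuclei too shallow to thin.

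Nearly every cone nucleus held some rod RNA: 99.3% of cone nuclei and 99.0% of low-rod cones, defined next, had a rod-marker UMI. Rod markers made up at least 1% of UMIs in 181 cone nuclei, whose median depth was 3837 UMIs, and under 1% in 387, whose median was 2251 UMIs. The 387 nuclei, called low-rod cones below, were split off after the data had been seen. The rod markers together stood at 19090 CPM in all cone nuclei and 4643 CPM in low-rod cones, against 27370 CPM in rod nuclei. Of the 4643 CPM left in low-rod cones Sag, the rod arrestin, held 3575 CPM, against 6745 CPM in rods. Whether the rod RNA came from doublets or free RNA was not tested, so values of low-rod cones are given beside those of all cones. In low-rod cones 851 of 12648 genes tested were higher than in rods (6.73%) and 336 lower (2.66%). Of the 625 and 151 genes called over all cones, 578 and 142 were also called in low-rod cones, and none turned direction.

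The summed bipolar markers stood at 1242 CPM in cone nuclei and 891 CPM in low-rod cones, against 2654 CPM in rod nuclei and 4663 CPM in nuclei that were neither. Müller glia markers stood at 239 CPM in cones and 372 CPM in low-rod cones, against 198 CPM in rods. Markers of the retinal pigment epithelium (RPE) stood at 69.1 CPM in cones and 111 CPM in low-rod cones, against 59.99 CPM in rods. Both were higher in low-rod cones than in all cones, and their part in the results was not tested. Amacrine markers stood at 131 CPM in cones and 178 CPM in low-rod cones, against 141 CPM in rods. Ganglion cell markers stood at 26.8, 48.1 and 27.5 CPM in these sets, and microglia or macrophage markers at 3.98, 5.23 and 15.1 CPM. Single members of these lists were at 0 UMIs in cone nuclei: Best1 of the RPE, Chat of amacrine cells, Pou4f2 of ganglion cells and P2ry12, C1qa and C1qb of microglia. A count of 0 in this class has an exact upper bound of 1.83 CPM.

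The cone-specific arms of phototransduction were higher in cones for every gene tested. All 6 members of the list of cone phototransduction that the rule did not use were called higher, with a median log2 ratio of 5.85, beside -0.01 over all genes tested. Cnga3 (chromosome 1, 37218241 to 37263384) stood at 265 CPM (243 to 289) in cone nuclei, against 3.06 CPM (2.0 to 4.48) in rod nuclei. By piece it stood at 256, 263, 281 and 262 CPM in cones, against 5.15, 0.945, 0.58 and 4.74 CPM in rods. Cones of the 4 pieces lay close together and far above every rod value. Cngb3, the beta subunit of the same channel, stood at 1303 CPM (1254 to 1354) in cones, against 14 CPM in rods. Slc24a2, the sodium-calcium exchanger of cones, stood at 1150 CPM in cones, against 18.4 CPM in rods.

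The paired transducin and phosphodiesterase subunits followed. Pde6h stood at 811 CPM (772 to 852) in cones, against 15.2 CPM in rods. Gngt2, the cone transducin gamma subunit, stood at 221 CPM in cones, against 6.47 CPM in rods. Gnb3, the cone transducin beta subunit, was nearest to rods, at 843 CPM (803 to 884) in cones and 195 CPM (186 to 205) in rods. Its gap differed between pieces. Cones held 791, 953, 875 and 719 CPM in pieces 1 to 4, against 101.2, 306, 305 and 108 CPM in rods. In low-rod cones Gnb3 stood at 1061, 1127, 1119 and 1126 CPM in pieces 1 to 4.

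Among rod phototransduction genes that did not choose the classes, the count depended on the rod RNA in cone nuclei. Over all cones 1 of 5 was called lower, beside 1.18% of all genes tested. It was Cngb1, the rod channel's beta subunit, at 576 CPM in cones and 1335 CPM in rods. In low-rod cones 3 of 5 were called lower, beside 2.66% of all genes tested. Cngb1 then stood at 58.6 CPM in cones, and the rod transducin beta subunit Gnb1 at 175 CPM in low-rod cones against 2724 CPM in rods. The rod exchanger Slc24a1 stood at 54.4 CPM in low-rod cones against 1006 CPM in rods. Gngt1 and Pde6g, the rod gamma subunits, were not called in either set, and Pde6g stood at 480 CPM in low-rod cones against 890 CPM in rods. Low-rod cones were chosen by rod markers, so the level of these genes in them follows that choice in part.

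**Figure D1:**
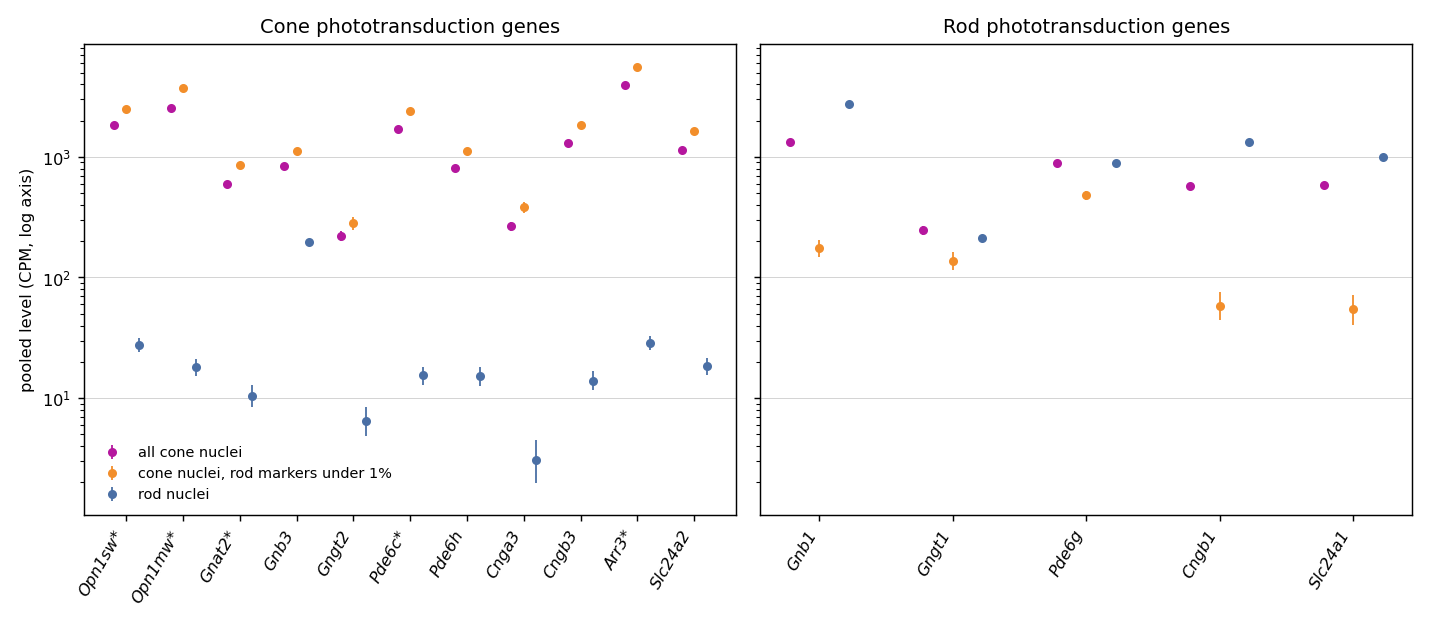
Pooled levels in CPM on a log axis of cone (left) and rod (right) phototransduction genes in all cone nuclei, low-rod cone nuclei and rod nuclei, with exact Poisson 95% intervals. Asterisks mark genes that chose the cone nuclei, and the rod panel shows genes that chose no class; cone genes without one lay at 221 to 1303 CPM in cones, and Gnb1, Cngb1 and Slc24a1 lay at 54.4 to 175 CPM in low-rod cones.

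Of 13 shared phototransduction genes none was higher and 2 were lower in cones, beside 4.87% and 1.18% of all genes tested. The 2 were Guca1b and Gucy2f, which regulate and make cyclic GMP. Gucy2f stood at 255 CPM in cones and 25.1 CPM in low-rod cones, against 794 CPM in rods. Its paralogue Gucy2e stood at 553 CPM in cones and 397 CPM in low-rod cones, against 559 CPM in rods, with no call. Guca1b stood at 252 CPM in cones, 49.2 CPM in low-rod cones and 601 CPM in rods, while its paralogue Guca1a stood at 523, 532 and 402 CPM in these sets, with no call. Phosducin, Pdc, was lower in low-rod cones alone, at 376 CPM against 877 CPM in rods. Rgs9, which speeds transducin's shut-off, stood at 1751 CPM in cones and 2073 CPM in rods.

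Of 17 photoreceptor transcription factors tested, 5 were higher in cones and 2 lower, beside 4.87% and 1.18% of all genes tested. Rxrg, a retinoid X receptor that partners thyroid hormone receptor, stood at 94.0 CPM (81.0 to 108) in cones, against 1.41 CPM in rods. Sall3, a zinc-finger factor, stood at 80.5 CPM in cones against 1.53 CPM in rods, and the homeobox gene Six6 at 36.3 CPM against 2.12 CPM. Prdm1, known for its role in the choice between photoreceptor and bipolar fate, stood at 368 CPM in cones against 38.0 CPM in rods. Rora stood at 2115 CPM in cones against 881 CPM in rods, below the 4447 CPM of nuclei that were neither. Rxrg was found in 147 cone nuclei and 11 rod nuclei.

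Thrb, which encodes the thyroid hormone receptor needed for Opn1mw in mouse cones, was not called, at 1923 CPM (1863 to 1984) in cones and 1799 CPM (1771 to 1828) in rods. In low-rod cones it stood at 2061 CPM. These UMIs do not separate the isoforms of Thrb. Esrrb, an orphan receptor known in rods, was lower, at 725 CPM in cones and 175 CPM in low-rod cones, against 2127 CPM in rods. Samd11 was lower as well, at 196 CPM in cones and 40.8 CPM in low-rod cones, against 530 CPM in rods. Crx, the factor that drives both photoreceptor types, stood at 1070 CPM in cones and 944 CPM in rods.

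Outer segment disc and cilium genes gave no call over all cones, with 21 tested, beside 4.87% higher and 1.18% lower over all genes tested. Their median log2 ratio was -0.25, beside -0.01 over all genes tested. Prph2 (chromosome 17, 46910478 to 46924933) stood at 1718 CPM (1661 to 1776) in cones and 2267 CPM (2235 to 2299) in rods. By piece it stood at 1849, 1681, 1538 and 1817 CPM in cones, against 2539, 2061, 1890 and 2466 CPM in rods. Cones lay below rods in each piece, by less than the 2 times needed for a call. In low-rod cones Prph2 stood at 720 CPM (667 to 776) and was called lower, with 669, 682, 750 and 790 CPM in pieces 1 to 4. Its partner Rom1 stood at 396 CPM in cones and 160 CPM in low-rod cones, against 370 CPM in rods, with no call.

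In low-rod cones 5 of 21 disc and cilium genes were lower and none higher, beside 2.66% and 6.73% of all genes tested. Besides Prph2 these were the flippase Abca4, the axonemal gene Rp1, the actin bundler Fscn2 and the adhesion receptor Adgrv1. Rp1 stood at 328 CPM in low-rod cones against 1343 CPM in rods, and Fscn2 at 13.6 CPM against 113 CPM. Rpgrip1, a scaffold of the connecting cilium, stood at 1999 CPM in low-rod cones against 2288 CPM in rods. Cdhr1, a cadherin of the disc edge, stood at 1039 CPM in all cones against 522 CPM in rods, the highest ratio of the list.

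Of 14 retinoid cycle genes 1 was higher and 1 lower over all cones, beside 4.87% and 1.18% of all genes tested. Rbp3, the retinoid carrier of the space between photoreceptors and RPE, stood at 2912 CPM (2837 to 2987) in cones, against 1148 CPM (1126 to 1171) in rods. Its call ended in low-rod cones, at 2152 CPM. Dhrs3, a retinal reductase, was lower, at 95.9 CPM in cones and 17.8 CPM in low-rod cones, against 277 CPM in rods. Rdh12 was lower in low-rod cones alone, at 76.4 CPM against 211 CPM in rods. The RPE genes Rpe65 and Lrat stood at 4.97 and 2.98 CPM in cones, against 2.47 and 1.65 CPM in rods.

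At the synapse, cone terminals (pedicles) and rod terminals share a ribbon machinery. Here 3 of 24 genes tested were higher in cones and none lower, beside 4.87% and 1.18% of all genes tested. Cplx3, a complexin of ribbon synapses, stood at 105 CPM (91.2 to 120) in cones, against 9.53 CPM in rods. Elfn2 stood at 110 CPM in cones, against 7.88 CPM in rods, while Elfn1, known to recruit the glutamate receptor of rod bipolar cells, stood at 541 CPM in cones against 759 CPM in rods. Lrit3, an adhesion protein that organises the postsynaptic channel, stood at 268 CPM in cones against 98.3 CPM in rods. In low-rod cones Cplx4 was lower, at 211 CPM against 501 CPM in rods, and the calcium channel subunit Cacnb2 was lower at 1223 CPM against 3066 CPM. Ribeye's gene Ctbp2 stood at 304 CPM in cones and 167 CPM in rods, with no call.

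Channels, pumps and energy genes gave 4 calls, all higher, beside 4.87% higher and 1.18% lower over all genes tested. Of 15 channels and pumps these were Kcne2, a potassium channel beta subunit, at 97.9 CPM in cones against 1.65 CPM in rods, and Atp1b2, a sodium pump subunit, at 1581 CPM against 610 CPM. Kcne2 was found in 159 cone nuclei and 14 rod nuclei. Of 21 energy genes they were the creatine kinases Ckb, at 468 CPM in cones against 97.1 CPM in rods, and Ckmt1, at 154 CPM against 53.4 CPM. Hk2, a hexokinase, stood at 506 CPM in cones and 424 CPM in rods. Nxnl1, the gene of rod-derived cone viability factor, was lower in low-rod cones, at 60.7 CPM against 183 CPM in rods.

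Of 18 genes of dorsoventral position and thyroid hormone action 9 were tested and none was called over all cones. Over all genes tested 4.87% were higher and 1.18% lower, so so few genes would give few calls. In low-rod cones 1 of 9 was lower, beside 2.66% of all genes tested. It was Vax2, at 16.7 CPM against 101.4 CPM in rods.

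Of 20 survival and guidance receptors tested 2 were higher in cones and 1 lower, beside 4.87% higher and 1.18% lower over all genes tested. Cntfr, the ciliary neurotrophic factor receptor, stood at 105 CPM in cones against 11.1 CPM in rods, and the netrin receptor Unc5d at 372 CPM against 34.9 CPM. Both lay below the nuclei that were neither, at 155 CPM for Cntfr and 490 CPM for Unc5d. Ntrk3 was lower, at 39.8 CPM in cones against 128 CPM in rods. None of the 13 unfolded protein response genes tested over all cones was called, nor any of the 12 tested in low-rod cones. The chaperone gene Hspa5 stood at 63.6 CPM in cones against 24.8 CPM in rods, and Ddit3 at 13.4 CPM against 8.35 CPM.

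Of 11 cell death genes tested 2 were higher in cones, beside 4.87% of all genes tested. Among the 2, Gsdme, a pore-forming gasdermin, stood at 11.4 CPM in cones against 2.0 CPM in rods. Bcl2 and Bcl2l11 were lower in low-rod cones alone, 2 of 11 tested, beside 2.66% of all genes tested. Bcl2 stood at 93.1 CPM in low-rod cones against 294 CPM in rods.

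Beyond the lists, the genes furthest above rods by the ratio of bounds began with Ccdc136, at 1023 CPM in cones against 9.88 CPM in rods. Mapk4, an atypical MAP kinase, stood at 1000.2 CPM against 9.76 CPM, and the junctional adhesion gene Jam3 at 379 CPM against 4.82 CPM. Adrb1, the beta-1 adrenergic receptor, stood at 266 CPM in cones, against 3.41 CPM in rods and 28.0 CPM in nuclei that were neither. Otop3, a proton channel, stood at 100.4 CPM in cones, against 0.941 CPM in rods and 0.907 CPM in nuclei that were neither. Cdh18, a type II cadherin, stood at 2470 CPM against 52.5 CPM, and Slc24a4, a further sodium-calcium exchanger, at 890 CPM against 18.6 CPM. Epb41l1, Tafa3, Osbpl3, Qsox1 and Nptx1 followed at 188 to 657 CPM in cones and 3.18 to 11.4 CPM in rods.

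Genes furthest below rods were Abca13, Pak7, Galnt10, Tmem108, Tepp, Dpp10, Gulp1 and Plekha2. Tmem108 stood at 841 CPM in cones and 259 CPM in low-rod cones, against 2689 CPM in rods. Pak7, a p21-activated kinase, stood at 243 CPM in cones and 44.98 CPM in low-rod cones, against 899 CPM in rods. Of the 625 genes called higher, 597 lay above rods in each of the 4 pieces (95.5%), where 17.7% of all tested genes did. All 151 called lower lay below rods in each piece, where 21.4% of all tested genes did. The calls were made on the same nuclei pooled, so these counts describe evenness over pieces and add no separate evidence.

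The ratio of the 2 opsins was not part of the rule, which used their sum. Opn1sw made up 42.0% of all opsin UMIs in cone nuclei (40.9 to 43%), with 3681 Opn1sw and 5092 Opn1mw UMIs. Of 412 cone nuclei with at least 10 opsin UMIs, 43 had an Opn1sw share of at least 0.9 (Opn1sw-rich), 133 a share of at most 0.1 (Opn1mw-rich) and 236 lay between (mixed). In 211 of them (51.2%, 46.3 to 56.1%) at least 3 UMIs of each opsin were found. Among nuclei with rod markers under 1% this held for 148 of 292 (50.7%). Between 10 and 90% they spread over every bin of 10 percentage points, with 13 to 47 nuclei in each. Doublets and free RNA can each put an opsin into a nucleus, and low counts make the share of a nucleus imprecise. The part of each in the mixed nuclei was not tested.

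The Opn1sw share changed across each piece. In the right sides of pieces 1 and 2 it was 50.9 and 64.4%, against 27.9 and 22.7% in their left sides. In the left sides of pieces 3 and 4 it was 55.6 and 49.5%, against 25.2 and 19.8% in their right sides. The exact intervals of the 2 sides did not overlap in any piece. They treat UMIs pooled over nuclei as independent and do not cover the spread between nuclei. The direction was opposite in pieces 1 and 2 against pieces 3 and 4, which the labels do not orient. Over whole pieces the share was 44.98, 44.4, 44.9 and 35.0% in pieces 1 to 4. Within the retinal band, defined below, the gap widened: 57.2 and 69.8% in the right sides of pieces 1 and 2 against 22.1 and 15.1% in the left, and 59.8 and 52.3% in the left sides of pieces 3 and 4 against 10.4 and 17.2% in the right.

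**Figure D2:**
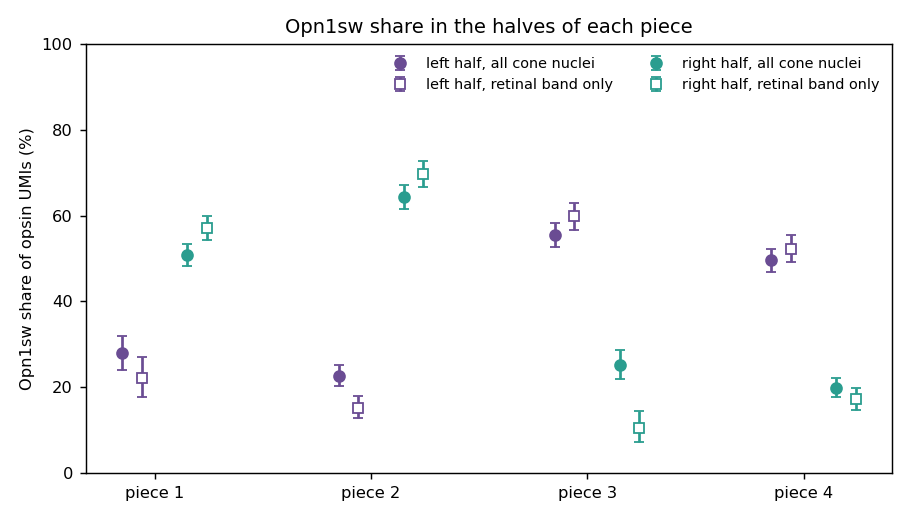
Opn1sw share of opsin UMIs (%) in the left and right side of each piece, for all cone nuclei (filled circles) and those in the retinal band (open squares), with exact binomial 95% intervals. The right side is higher in pieces 1 and 2 and the left side in pieces 3 and 4, with all-nuclei shares from 19.8 to 64.4%.

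**Figure D3:**
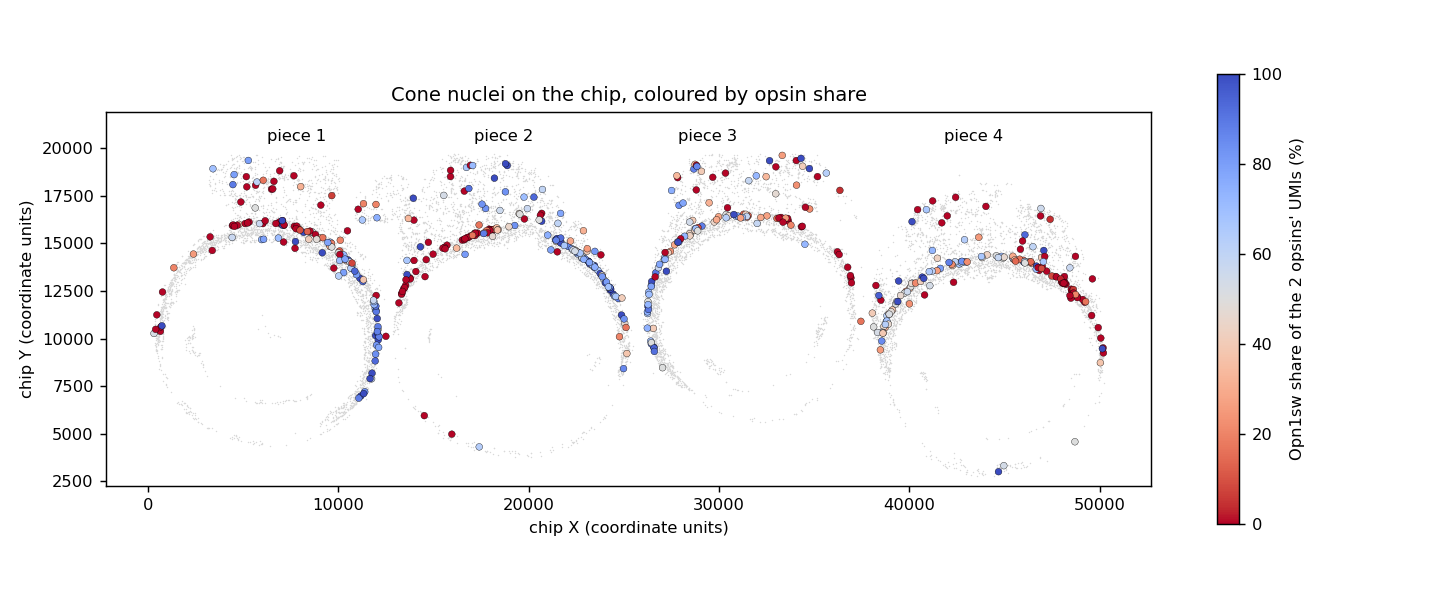
Chip positions in coordinate units of the 568 cone nuclei, coloured by the Opn1sw share of their opsin UMIs (blue high, red low), over all other kept nuclei in grey. Cone nuclei line the upper arc of 4 rings, and blue nuclei are a larger part on the right of pieces 1 and 2 and on the left of pieces 3 and 4, with both colours on each side.

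The other genes of the 2 opsin classes were compared between Opn1sw-rich and Opn1mw-rich nuclei by the same rule. Of 5554 genes tested, 31 were higher in Opn1sw-rich nuclei (0.558%) and 12 lower (0.216%). Many rested on 1 deep nucleus: without the nucleus that held most UMIs of the gene, 12 of the 31 and 9 of the 12 kept their call. By the share of nuclei with a UMI, with the same 2 times rule, 6 and 2 did. Adarb2, Fstl4 and Mlph lost theirs without 1 nucleus, and Chsy3 and Aff3 had UMIs in 2 and 4 of the 43 Opn1sw-rich nuclei. Median depths were 2567 UMIs in Opn1sw-rich and 2555 in Opn1mw-rich nuclei, but the 2 deepest Opn1sw-rich nuclei, of 23965 and 11322 UMIs, held 20.5% of that set's UMIs. The 31 genes also included the pigment cell genes Mlph, Pmel, Dct and Gpnmb. Pmel stood at 116 CPM in Opn1sw-rich nuclei against 9.62 CPM in Opn1mw-rich nuclei, and Dct at 146 CPM against 17.3 CPM. Mlph, Pmel and Gpnmb were each found in 2 Opn1sw-rich nuclei and Dct in 4, all 4 genes lost the call without 1 nucleus, and their part in the other calls was not tested.

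Cacna1h, a T-type calcium channel, was the gene furthest above. It stood at 454 CPM (359 to 567) in Opn1sw-rich nuclei and 199 CPM in mixed nuclei, against 5.77 CPM (1.19 to 16.9) in Opn1mw-rich nuclei. It was found in 31 of 43 Opn1sw-rich and 2 of 133 Opn1mw-rich nuclei, and kept its call under both stricter measures. By sides, Cacna1h in cones stood at 228 and 222 CPM in the right sides of pieces 1 and 2, against 114 and 104 CPM in the left. It stood at 232 and 197 CPM in the left sides of pieces 3 and 4, against 137 and 66.5 CPM in the right. The sides thus ran the same way as the opsin share in every piece. The nuclei behind the call also set which side held more Opn1sw. Sides in cones, here and below, therefore add no separate evidence.

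Ccdc136 lies on chromosome 6 at 29396574 to 29426995, 16060 bases from Opn1sw with 1 annotated gene between them. It stood at 2008 CPM (1802 to 2232) in Opn1sw-rich nuclei and 1307 CPM in mixed nuclei, against 217 CPM (179 to 261) in Opn1mw-rich nuclei. All 43 Opn1sw-rich nuclei and 57 of 133 Opn1mw-rich nuclei held a UMI of it, which ends its call by the share of nuclei. It also led the genes beyond the lists in cones against rods. By sides it was higher on the Opn1sw side in 4 of 4 pieces.

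Syndig1l stood at 169 CPM in Opn1sw-rich and 159 CPM in mixed nuclei, against 1.92 CPM in Opn1mw-rich nuclei. Vax2os, a non-coding transcript that overlaps the ventral factor Vax2 by 963 bases, stood at 210 CPM in Opn1sw-rich nuclei and 162 CPM in mixed nuclei, against 7.70 CPM in Opn1mw-rich nuclei. It was found in 9 of 43 Opn1sw-rich nuclei and 4 of 133 Opn1mw-rich nuclei, and was not called by the share of nuclei. Among low-rod cones Vax2os stood at 43.4 CPM in Opn1sw-rich nuclei against 4.03 CPM in Opn1mw-rich nuclei. Over all cones of piece 4 it stood at 0 CPM in Opn1sw-rich nuclei against 12.7 CPM in Opn1mw-rich nuclei, from 0 and 2 UMIs. Rods held 353 CPM of it. The strand of counting is not given, so reads of Vax2 and Vax2os in the shared bases cannot be told apart. Both genes were higher on the Opn1sw side of every piece in cones, and in rods as well. Vax2 in cones stood at 51.7 and 76.0 CPM on that side of pieces 1 and 2, against 0 and 23.5 CPM on the other, and at 64.2 and 48.2 CPM against 7.61 and 3.91 CPM in pieces 3 and 4. Nr2f2, an orphan receptor known in dorsal retina, had no UMI in Opn1sw-rich nuclei and stood at 50.03 CPM in Opn1mw-rich nuclei, with no call, and was lower on the Opn1sw side of all 4 pieces.

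The synaptic receptor gene Nrxn3 stood at 4558 CPM in Opn1sw-rich nuclei, against 468 CPM in Opn1mw-rich nuclei, and was not called by the share of nuclei. It did not follow the sides of the pieces: its level in cones was higher on the Opn1sw side in 0 of 4 pieces, although Opn1sw-rich nuclei lay above Opn1mw-rich nuclei in each of the 4 pieces. Eya1, Elfn2 and Wscd2, chosen after their values were seen, were also called by the share of nuclei. Eya1 stood at 163 CPM in Opn1sw-rich nuclei against 19.2 CPM in Opn1mw-rich nuclei, Elfn2 at 215 against 36.6 CPM and Wscd2 at 239 against 48.1 CPM. Levels in cones were higher on the Opn1sw side in 4 pieces for Eya1, 3 for Elfn2 and 2 for Wscd2.

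Among the 12 genes lower in Opn1sw-rich nuclei, Mdga2, a synaptic adhesion gene, stood at 69.9 CPM (36.1 to 122) in Opn1sw-rich nuclei and 240.3 CPM in mixed nuclei, against 808 CPM (733 to 889) in Opn1mw-rich nuclei. It was found in 4 of 43 Opn1sw-rich and 88 of 133 Opn1mw-rich nuclei, and kept its call by the share of nuclei. The netrin receptor Unc5d stood at 140 CPM against 518 CPM, the zinc-finger gene Tshz2 at 274 CPM against 970 CPM and the G protein regulator Rgs7 at 111 CPM against 695 CPM, and none of these 3 was called by the share of nuclei. In cones Mdga2, Unc5d, Tshz2 and Rgs7 were lower on the Opn1sw side of all 4 pieces. Gpc6, Car10, Cdh12 and Lrrc4c were also lower in Opn1sw-rich nuclei. Gpc6 and Cdh12 kept their call without 1 nucleus, and Car10 and Lrrc4c lost it. By sides, Car10 was higher on the Opn1sw side in 0 of 4 pieces, Gpc6 and Cdh12 in 1 each and Lrrc4c in all 4.

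Thrb, Rxrg and Prph2 gave no call between the opsin sets. Thrb stood at 1351 CPM (1182 to 1536) in Opn1sw-rich nuclei and 1991 CPM in mixed nuclei, against 2134 CPM (2010 to 2263) in Opn1mw-rich nuclei. Rxrg stood at 180 CPM in Opn1sw-rich nuclei, against 73.1 CPM in Opn1mw-rich nuclei. Prph2 stood at 1589 CPM in Opn1sw-rich nuclei against 1861 CPM in Opn1mw-rich nuclei.

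**Figure D4:**
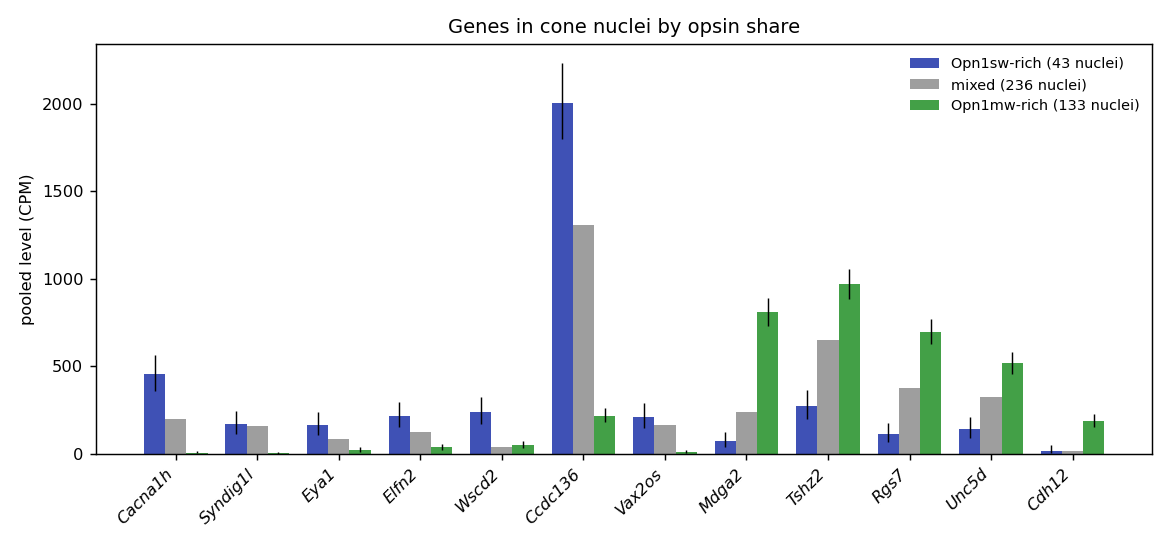
Pooled levels in CPM of 12 genes in Opn1sw-rich, mixed and Opn1mw-rich cone nuclei, with exact Poisson 95% intervals on the 2 outer sets. Ccdc136 and Cacna1h are highest in Opn1sw-rich nuclei, at 2008 and 454 CPM, and Mdga2, Tshz2, Rgs7 and Unc5d in Opn1mw-rich nuclei.

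Cone nuclei lay close to the pigment epithelium. The median distance to the nearest of 633 RPE nuclei was 158 coordinate units (142 to 182) for cones and 310 units (299 to 321) for rods, in units whose length is not stated. By piece it was 205, 138, 156 and 116 units for cones, against 344, 277, 410 and 273 units for rods. Cones were nearer in every piece. Depth was measured inward from the local ring of RPE nuclei, and a retinal band from -200 to 1200 units held 411 of 568 cones (72.4%) and 3744 of 5942 rods (63.0%). Within it the median depth was 78.8 units for cones and 150 units for rods. By piece the medians were 103, 66.9, 63.3 and 74.6 units for cones, against 221, 91.5, 125 and 156 units for rods.

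**Figure D5:**
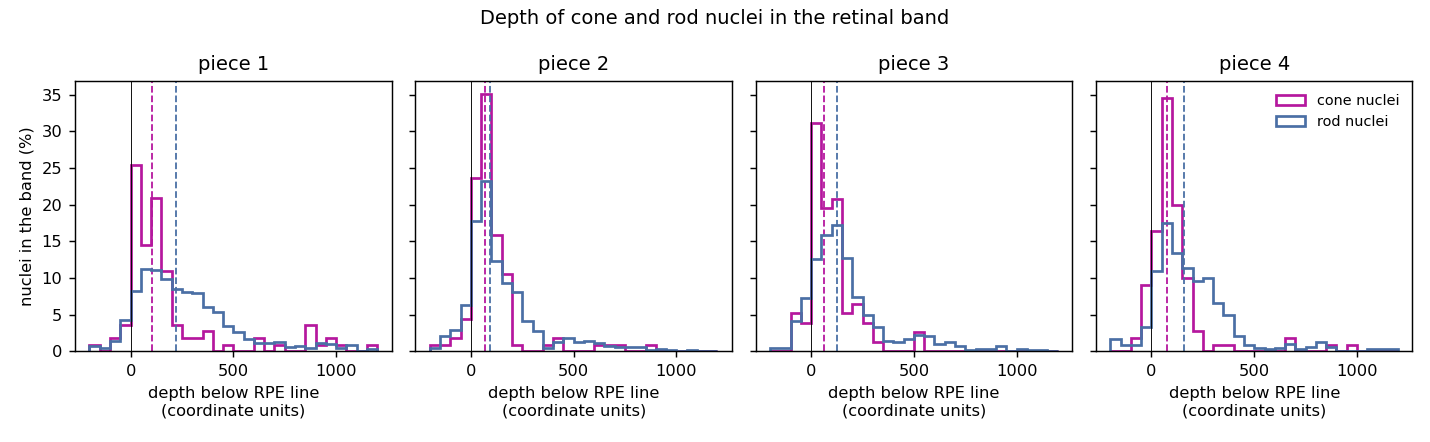
Share of cone and rod nuclei (%) by depth below the RPE line, in coordinate units, within the retinal band of each piece, with medians as dashed lines. Cone medians lie at 63.3 to 103 units and rod medians at 91.5 to 221 units, with the cone line nearer to 0 in every piece.

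The neighbours of cones were counted among the 20 nearest kept nuclei. Rods made up 50.04% of them, against 35.2% of all kept nuclei, and by piece 52.7, 48.1, 46.5 and 52.5%. RPE nuclei made up 8.16%, against 3.75% of all kept nuclei, and other cones 7.24%, against 3.37%. For rods the neighbours were 47.4% rods, 4.77% RPE nuclei and 4.99% cones. Cones thus had more RPE neighbours than rods had, and the range for cones over the pieces was 6.06 to 10.3%, against 3.44 to 6.05% for rods.

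A minority of cone nuclei lay elsewhere. Beyond the outer edge of the band lay 136 cone nuclei (and 1836 rod nuclei), and 21 had no local RPE ring. The 157 cones outside the band had a median rule-gene share of 1.58% and 2262 UMIs, against 1.36% and 2546 UMIs inside it. Chosen after its values were seen, the fibroblast gene Col1a1 stood at 70.6 CPM outside the band, against 5.67 CPM inside it, from 30 and 9 UMIs in 14 cone nuclei in all. Its part in the other results was not tested.

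The number of cones relative to rods was 8.33, 11.7, 10.5 and 8.42 cones per 100 rods in pieces 1 to 4. Between pieces 161 of 9058 genes differed in cones by the same rule, highest piece over lowest (1.78%). Without the nucleus with most UMIs 44 kept the call, and by the share of nuclei 4 did. Pieces carry no group in the labels, so their values are given side by side. The cone markers Cnga3 and Pde6h were not among the 161.

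The X-inactivation transcript Xist, named after its values were seen, stood at 131, 108, 122 and 1014 CPM in cones of pieces 1 to 4, and at 87.6, 97.8, 104 and 752 CPM in rods. It was found in 107 of 151 cone nuclei of piece 4 and in 13 to 14 cone nuclei of each other piece. The Y-linked Uty stood at 99.7, 112, 118 and 23.8 CPM in cones and Kdm5d at 42.7, 35.1, 43.6 and 1.98 CPM. Piece 4 was thus highest for Xist and lowest for both Y-linked genes, in cones as in rods, while the labels describe 1 eye.

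Most of the genes with the largest ratios between pieces rested on few nuclei. Igfbp5 stood at 218, 62.2, 4.36 and 333 CPM, from 3, 11, 2 and 11 nuclei of pieces 1 to 4. Nrg3 stood at 199, 63.8, 37.1 and 1.98 CPM from 8, 7, 4 and 1 nuclei. Lrp1b, Nrxn2, Fgf14, Nrg1, Tmem132d, Rgs6 and Grik1 likewise had UMIs in at most 8 cone nuclei of any piece. Dpp10, a potassium channel partner, stood at 38.0, 293, 499 and 37.6 CPM in cones, with 398, 1238, 1199 and 317 CPM in rods. B3galt1, a galactosyltransferase named after its values were seen, stood at 94.96, 375, 467 and 65.4 CPM in cones, with 206, 827, 972 and 197 CPM in rods. Both were higher in pieces 2 and 3 in cones and in rods. In low-rod cones B3galt1 stood at 122, 315, 172 and 93.5 CPM and Dpp10 at 25.3, 105, 96.2 and 55.2 CPM, which narrows the gap between the pieces.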

How the data were processed

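The deposited expression matrix holds raw counts of UMIs per gene and barcode for library T1 (17285 barcodes and 32285 features, per the file itself). The deposited position table gives each barcode 1 point in other units of unstated length, and every barcode had one. Software credited in the submitters' processing notes is fastp, STAR and Seurat 4.1.1, with the build mm10; the role of each, the strand, intron counting and cell calling were not stated. RefSeq promoters and gene positions are on GRCm38.p6, mm10's assembly.

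Barcodes with at least 200 genes and under 10% mitochondrial UMIs were kept (16867). The barcodes were unique, and no doublet caller was run, so doublets were not removed. Rod nuclei had rod markers at 1% or more and at least 5 UMIs, no other class's markers at 1% and under 10000 UMIs. RPE nuclei had RPE markers at 1% or more. Pieces were assigned to the nearest of 4 circles fitted to RPE nuclei, and depth was taken from RPE nuclei within 10 degrees.

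Pooled CPM had exact Poisson and shares exact (Clopper-Pearson) binomial 95% intervals, covering counting error only. Log2 ratios used 0.5 added to each count. The 13 gene lists hold 216 entries; a symbol on several features was read from the feature with most UMIs. Named genes are the markers, list members, up to 20 highest and 10 lowest genes against rods and up to 10 per direction between opsin sets and between pieces, without Gm and Rik symbols. Of the rule genes, Pde6c has no promoter shown. Some genes covered by this rule are not reported here. The interval rule was tested on simulated Poisson counts of pooled classes, without spread between nuclei. That test cannot show how the rule fares where a gene's UMIs sit in few nuclei. Members and lists were chosen with earlier results of these data known. Python 3.11.15, numpy 2.4.6, pandas 2.3.3, scipy 1.17.1 and matplotlib 3.10.9 were used.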

Additional observations from a re-analysis of the deposited data

How the results depend on the processing

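No paired analysis was possible because the only expression library has no group and no replicate. Of 57 alternatives to 10 results, 34 kept counts within 1.5 times the reported count or other values within its interval (for neighbours, the range over pieces) and 23 moved; the cause was not tested unless fewer genes or UMIs entered by construction. The number of cone nuclei ran from 511 to 600 over other thresholds, and 387 were low-rod cones. Genes higher in cones than in rods numbered 379 after thinning to 500 UMIs, of which 359 were among the 625. Genes lower in cones numbered 11 at a fold of 3, 341 with a rule-gene share of at least 1%, 272 without the 10% deepest cone nuclei and 336 in low-rod cones. The Opn1sw share was 39.4% with a rule-gene share of at least 1%, 44.2% in the retinal band and 40.4% in low-rod cones. Genes higher in Opn1sw-rich nuclei numbered 19 at a fold of 3, 12 with at least 50 UMIs, 12 without the nucleus with most UMIs and 6 by share of nuclei. Genes lower in them numbered 4 at a fold of 3, 19 with cuts of 0.8 and 0.2 and 2 by share of nuclei. Distance to the RPE was 261 units as the mean of the 5 nearest, and rods were 53.3% of 10 and 45.5% of 50 neighbours. Genes that differ between pieces numbered 76 at a fold of 3, 101 with at least 50 UMIs, 18 with a rule-gene share of at least 1%, 44 without the nucleus with most UMIs and 4 by share of nuclei. Settings on rod markers, the band and single nuclei were chosen after seeing the data. Depth limits genes of low count: 12844 of 32285 features entered the comparison with rods.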
